A study of Mus musculus with 2 samples.

Results

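Tbx21, which encodes T-bet, and Eomes, which encodes eomesodermin, were examined as the 2 T-box transcription factor genes of cytotoxic T cells. An interval of either peak list was taken as theirs when the protein-coding start site nearest to its summit, within 100 kb, was that of Tbx21 or Eomes, or when it lay within 1 kb of such a start site (GENCODE annotation, mm10). In all, 44 of 127423 vehicle intervals and 50 of 179414 TAMo intervals met the rule, and joining intervals that overlapped between the libraries gave 58 regions, 19 for Tbx21 and 39 for Eomes. The rule used gene names and positions, not coverage.

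The assay was ATAC-seq: a transposase inserts sequencing adapters where DNA is accessible, so read coverage marks open chromatin. The cells were CD8+ T cells of the OT-I line, whose transgenic receptor recognises an ovalbumin peptide, labelled wild type in genotype. Both cultures received the OVA257-264 peptide for 48 h; one was given vehicle, the other TAMos, defined in the series text as CD11b+Ly6G-Ly6Chigh cells taken from spleens of mice carrying LLC tumours. CD8+ T cells were sorted from each culture, with about 50000 cells per library, and there was 1 library per culture. How many mice were used, whether they were pooled and their age were not stated in the labels used here. With 1 library per culture, no value below has a replicate check, no p-value was computed, and each interval covers counting error only. Reads without molecular identifiers are not independent molecules, so the intervals may be too narrow even for counting error.

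T-box factors bind DNA through a shared domain named after Brachyury. In CD8+ T cells T-bet is induced early by antigen receptor, interferon-γ and IL-12 signals, and with Eomes it drives genes of cytotoxicity, interferon-γ production and IL-15 responsiveness. T-bet is linked to terminal effector cells, Eomes to memory cells and, at high levels, to exhausted cells.

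The sequences just upstream of both start sites are shown because the peak over each start site covered part of them. They are from RefSeq (build GRCm38.p6), the same assembly as mm10, end at the base before the RefSeq start site, and read 5′ to 3′ in the gene's direction. Capitals mark matches to the motifs given after them. The Tbx21 stretch is chr11:97115332-97115581, minus strand, and the Eomes stretch is chr9:118477939-118478188, plus strand.
Tbx21: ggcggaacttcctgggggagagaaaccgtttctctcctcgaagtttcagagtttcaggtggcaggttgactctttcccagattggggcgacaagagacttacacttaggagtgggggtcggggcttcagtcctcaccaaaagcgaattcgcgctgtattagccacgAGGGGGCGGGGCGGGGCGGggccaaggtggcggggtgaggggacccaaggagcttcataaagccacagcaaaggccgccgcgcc
Eomes: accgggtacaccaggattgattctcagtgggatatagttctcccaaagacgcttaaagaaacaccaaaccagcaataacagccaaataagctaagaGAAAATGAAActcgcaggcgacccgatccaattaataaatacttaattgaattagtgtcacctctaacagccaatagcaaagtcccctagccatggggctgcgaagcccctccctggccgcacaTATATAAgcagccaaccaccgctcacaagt

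The 2 upstream stretches differed in composition. Tbx21 had 60.8% G+C and 16 CpG pairs in 250 bases, Eomes had 46.4% G+C and 8 CpG pairs, and the medians over 32851 RefSeq promoters of that length were 52.4% and 6. On both strands, 12 motifs were searched: T-box TCACACC, Runx TGTGGT, AP-1 TGANTCA, STAT TTCNNNGAA, Tcf CTTTGAT, Ets CCGGAAG, IRF (GAAA, any 2 bases, GAAA), NFAT TGGAAA, NF-kB (GGGA, any 4 bases, CC), Sp GGGCGG, CTCF AGGGGGC and the TATA box as TATATAA, the last added after the sequences were seen. In Tbx21 the capitals hold 1 CTCF match, 84 to 78 bases before the start, which overlaps the first of 3 Sp matches that also overlap each other, ending 66 bases before it. In Eomes they hold 1 IRF match, 154 to 145 bases before the start, and 1 TATA match, 30 to 24 bases before it. Over all promoters of that length 32.7% held the Sp motif, 9.43% the CTCF motif, 2.98% the IRF motif and 3.04% the TATA motif. The remaining 8 motifs had no match in either stretch. A match is a run of letters, not a bound site.

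Both libraries carried the defining marks of T cells. All 10 CD8+ T cell marker genes, among them Cd3e and Cd8a, had a promoter peak in each library, with 238 to 756 reads at the summit in vehicle and 208 to 1256 reads in TAMo. Among all 20780 protein-coding genes, 13743 had a promoter peak in vehicle and 14269 in TAMo. Of 12 myeloid marker genes, 4 had a promoter peak in vehicle (25 to 347 reads) and 8 in TAMo (31 to 418 reads). Itgam, which encodes CD11b, a marker by which the TAMos were sorted, had a promoter peak in TAMo only (118 reads), as did Csf1r (100 reads), Fcgr3 (52 reads) and Adgre1 (31 reads). Cd14 had 141 reads in vehicle and 411 in TAMo, or 1.24 (0.96 to 1.53), and Spi1 had 25 and 57, or 0.89 (0.18 to 1.63). Cebpa had 237 and 316 reads, with an interval across 0, and the strongest Cebpb peaks lay at different sites. Ly6c2, Lyz2, Ccr2 and Mpo had no promoter peak in either library. Of 4 B cell markers, Ms4a1 had 26 reads in vehicle and 65 in TAMo, or 1.02 (0.34 to 1.74), Pax5 had a promoter peak in TAMo only (30 reads) and the others had none, and of 2 NK cell markers 1 had one in each library. The part of other cell types in the results below was not tested. Coverage is averaged over cells, so fewer cells with an open site and a less open site cannot be told apart. Summit reads were set against each library's genome-wide background of 4.71 reads in vehicle and 5.80 reads in TAMo. Over all 103845 regions with a peak in both libraries the log2 ratio (TAMo over vehicle) had a median of 0.28. It was 0.05 over the 18002 of them within 1 kb of a start site and 0.37 over the 85843 others. A ratio near 0 should be read against 0.05 around a start site and against 0.37 elsewhere.

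Tbx21 (ENSMUSG00000001444.2, chromosome 11, 97098071 to 97115331, minus strand, mm10) had 19 vehicle and 17 TAMo peaks, whereas Eomes (ENSMUSG00000032446.14, chromosome 9, 118478212 to 118486132, plus strand) had 25 and 33. The median protein-coding gene had 3 vehicle and 5 TAMo peaks, so both genes were rich in open regions. The log2 ratio of peak numbers, with 0.5 added to each, was −0.16 for Tbx21 and 0.39 for Eomes, against a median of 0.38 over the 17463 genes with a peak. Of these genes 10.6% had a ratio below that of Tbx21 and 51.2% one below that of Eomes. Eomes thus had more peaks in the longer TAMo list, as the median gene did. The lower Tbx21 count in TAMo came from 1 region split into 2 vehicle intervals and from 1 TAMo summit nearest to Osbpl7: by joined regions each library had 18, of which 17 were shared.

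Coverage at Tbx21 was lower in TAMo in most of an upstream cluster and in the later part of the gene body. Read against 0, it was close to even over the start site and in the first part of the gene body. The region 0.7 kb upstream was higher, with a log2 ratio of 0.49 (0.18 to 0.81). Some regions farther out on either side were also higher. Of all shared regions, 66.3% had a ratio below that of the region 4.2 kb upstream. For the regions 21.6 and 31.4 kb downstream the share was 83.0% and 74.2%. Of its 17 shared regions, 3 were at least 2-fold lower in TAMo, where 3.19% of all shared regions were, and 1 was at least 2-fold higher, where 21.9% were. The 95% exact binomial interval lay below 0 at 7 of the 17 regions and above 0 at 4, against 13.7% and 43.9% of all shared regions. It lay below 0.28, the median of all shared regions, at 10 of the 17 and above that median at 3. The shares of all shared regions with such intervals are not given here. The median log2 ratio was −0.05 (range −1.47 to 1.21). The regions share 2 libraries and are not replicates of one another.

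**Figure D1:**
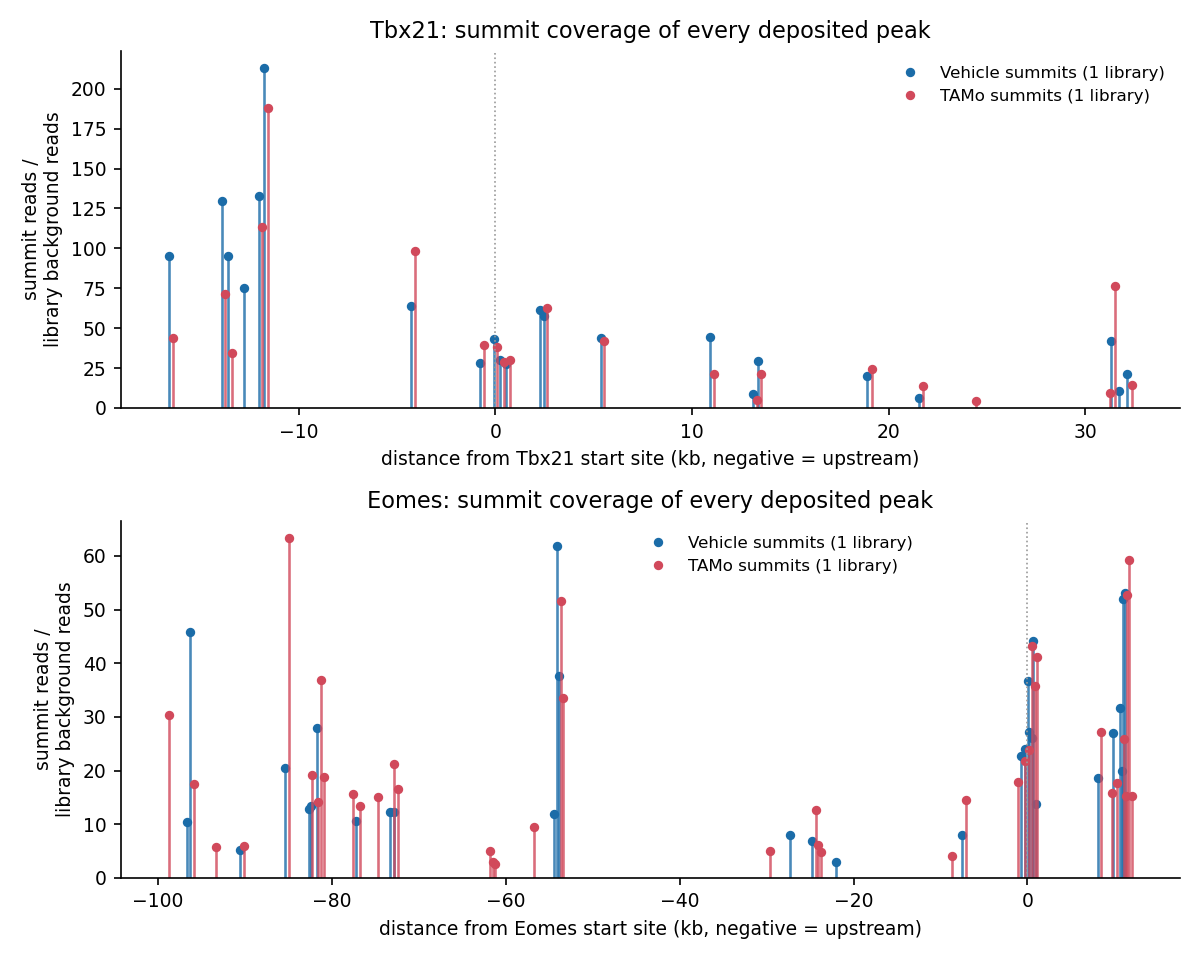
Summit reads divided by the library's background reads (vertical axis, linear from 0) for each deposited peak of Tbx21 (top) and Eomes (bottom), by distance from the nearest start site of the gene in kb; blue is the vehicle library, red the TAMo library, and the points of the 2 libraries are moved slightly apart sideways. At Tbx21 the blue points stand above the red ones between 11 and 17 kb upstream, and the red point stands above at 4.2 kb upstream and 31.4 kb downstream.

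The upstream cluster of Tbx21 comprised 5 intergenic regions 11.7 to 16.5 kb before the start site, 1 of them the strongest region of the gene. That region, 11.7 kb upstream (97126774 to 97127455), had 1003 reads in vehicle and 1092 in TAMo, a log2 ratio of −0.18 (95% interval −0.30 to −0.05). It was therefore close in height in the 2 libraries. The region 13.5 kb upstream (97128718 to 97128947) had 448 reads in vehicle and 200 in TAMo, or −1.47 (−1.71 to −1.22), and only 1.13% of all shared regions had a lower ratio. The region 16.5 kb upstream (97131707 to 97131967) had 448 and 256 reads, or −1.11 (−1.34 to −0.89). The region 13.8 kb upstream (97129007 to 97129337) had 610 and 415 reads, or −0.86 (−1.04 to −0.68), just short of 2-fold. Thus the shared regions farther upstream in the cluster were lower in TAMo, while its leading region was nearly level, with an interval just below 0. With the median of all shared regions set to 0, the ratio of the leading region was −0.46.

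The fifth region of the cluster, 12.7 kb upstream (97127899 to 97128135), was called in vehicle only, with 353 reads and a −log10 q of 61.7. Coverage in TAMo was not measured there. The nearest TAMo peak, 815 bp away, served for scale, chosen with the values in view. It had a local background of 88.1 reads, and at local backgrounds within 10% of that the lowest summit in the TAMo list had 123 reads. Among the 50000 strongest peaks of each list, this was the only one of either gene without an overlapping peak in the other library. Of all such strong peaks 1.07% in vehicle and 5.41% in TAMo had none.

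The contrast inside the cluster did not depend on scaling between libraries. As a percentage of the summit reads of the region 11.7 kb upstream in the same library, the region 13.5 kb upstream had 44.7% in vehicle and 18.3% in TAMo. The region 16.5 kb upstream had 44.7% and 23.4%, and the region 13.8 kb upstream had 60.8% and 38.0%. By contrast the region 4.2 kb upstream had 29.9% in vehicle and 52.3% in TAMo.

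The peak caller's local background, its estimate of coverage in the surroundings of a summit, shares reads with the peaks and is not independent of them. In the upstream cluster it was 110 to 122 reads in vehicle and 87.0 to 88.5 reads in TAMo. Scaled like the summits, its log2 ratio there was −0.76 to −0.64, and 5.37% of all shared regions had a local background at least 1.5-fold lower in TAMo. Within 1 kb of the start site the same log2 ratio was 0.08 to 0.14. At the regions 11.0 and 13.4 kb downstream, within the gene, it was −0.72 and −0.76, and at the Eomes region 96.1 kb upstream −0.57. The local background was thus lower in TAMo around the upstream cluster and in the later part of the gene body, and not around the start site.

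**Figure D2:**
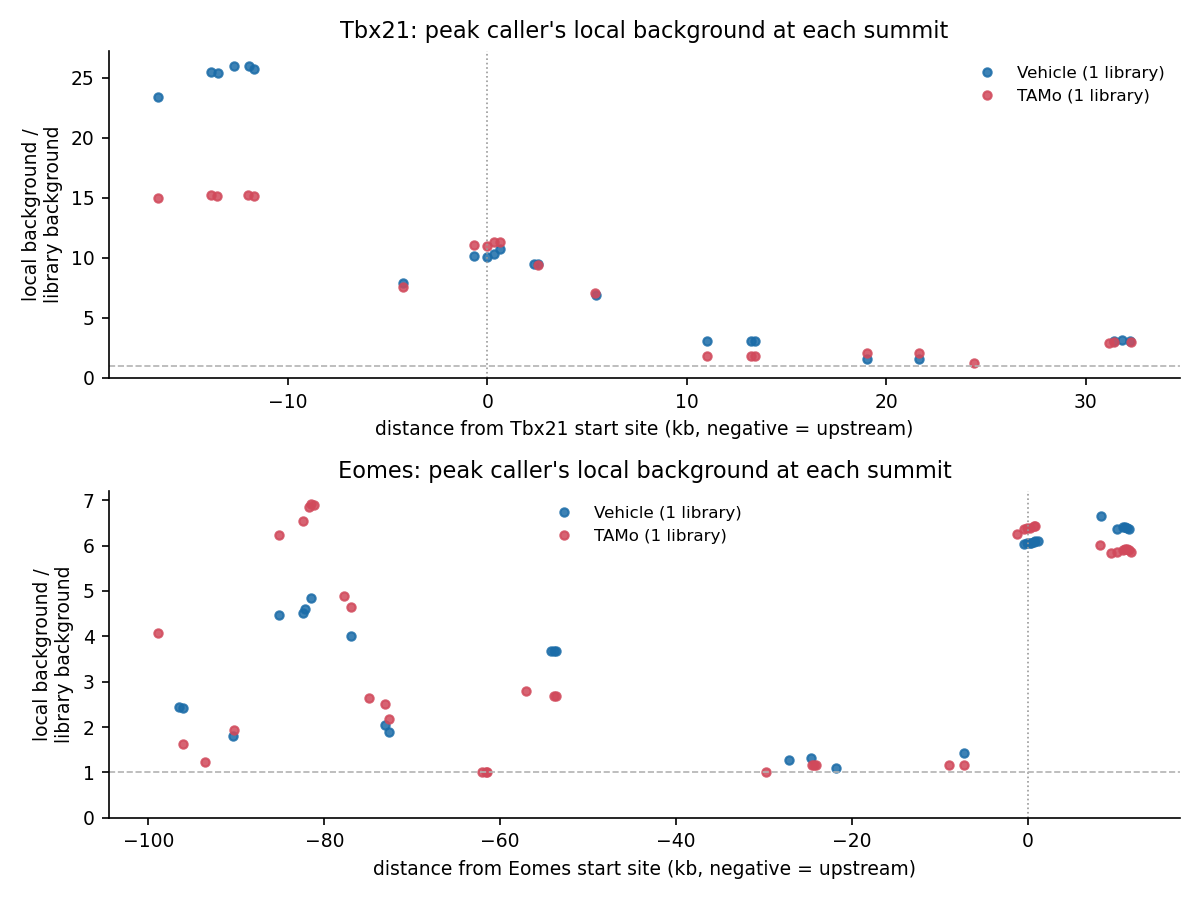
The peak caller's local background at each summit divided by the library's background (vertical axis, linear from 0; the dashed line marks 1), by distance from the start site in kb, for Tbx21 (top) and Eomes (bottom), with vehicle in blue and TAMo in red. The cluster upstream of Tbx21 separates by library, with vehicle above TAMo, and the points around the start site nearly coincide.

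Around the Tbx21 start site 4 regions lay within 1 kb in each library. The peak over the start site (97115203 to 97115444), with its summit in the 5′ UTR part of exon 1, had 202 reads in vehicle and 223 in TAMo, or −0.16 (−0.44 to 0.12). Its summits lay 1 and 0 bp from the RefSeq start, so it covers the end of the sequence printed above. The regions 0.3 kb and 0.7 kb downstream, both in the coding part of exon 1, had 140 and 129 reads in vehicle and 167 and 173 in TAMo, and their intervals also spanned 0. The region 0.7 kb upstream (97115910 to 97116097) had 132 reads in vehicle and 229 in TAMo, or 0.49 (0.18 to 0.81). It was the strongest promoter peak in TAMo, while the start-site peak was the strongest in vehicle by −log10 q, so a single promoter ratio would compare different sites.

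Farther upstream and within the gene the regions of Tbx21 went both ways. The intergenic region 4.2 kb upstream (97119367 to 97119905) had 300 reads in vehicle and 571 in TAMo, or 0.63 (0.42 to 0.83). In intron 1, the region 2.3 kb downstream had 290 and 362 reads, or 0.02 (−0.21 to 0.25). Its highest summits lay 2338 bp downstream in vehicle and 2528 bp in TAMo, so that ratio compares different sites. Another vehicle summit, at 2568 bp, had 270 reads, and by the mean over summits the ratio was 0.07. The region 5.5 kb downstream had 206 and 245 reads, or −0.05 (−0.33 to 0.22). Still in intron 1, the region 11.0 kb downstream (97104135 to 97104538) had 210 reads in vehicle and 125 in TAMo, or −1.05 (−1.38 to −0.72). In intron 2, the region 13.4 kb downstream had 138 and 125 reads, or −0.45 (−0.81 to −0.09). Read against 0, the first part of the gene body was thus close to even and its later part lower in TAMo. By highest summits, the intervals at 2.3 and 5.5 kb lay below 0.37, the median of shared regions away from start sites.

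Downstream of Tbx21 the weak region at 21.6 kb (97093575 to 97093855) had 28 reads in vehicle and 80 in TAMo, or 1.21 (0.58 to 1.89), and was the only region of the gene at least 2-fold higher. The region at 31.4 kb (97083418 to 97084285) had 198 reads in vehicle and 444 in TAMo, or 0.86 (0.62 to 1.11). Next to it the region at 32.2 kb had 101 and 84 reads, or −0.57 with an interval below 0, so neighbours stood on opposite sides of 0. Its vehicle summit was nearest to Tbx21 and its TAMo summit nearest to Osbpl7, so it counts among the vehicle peaks only. The region at 19 kb had 93 and 142 reads, with an interval that spanned 0, and a region at 24.4 kb was called in TAMo only, with 24 reads.

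**Figure D3:**
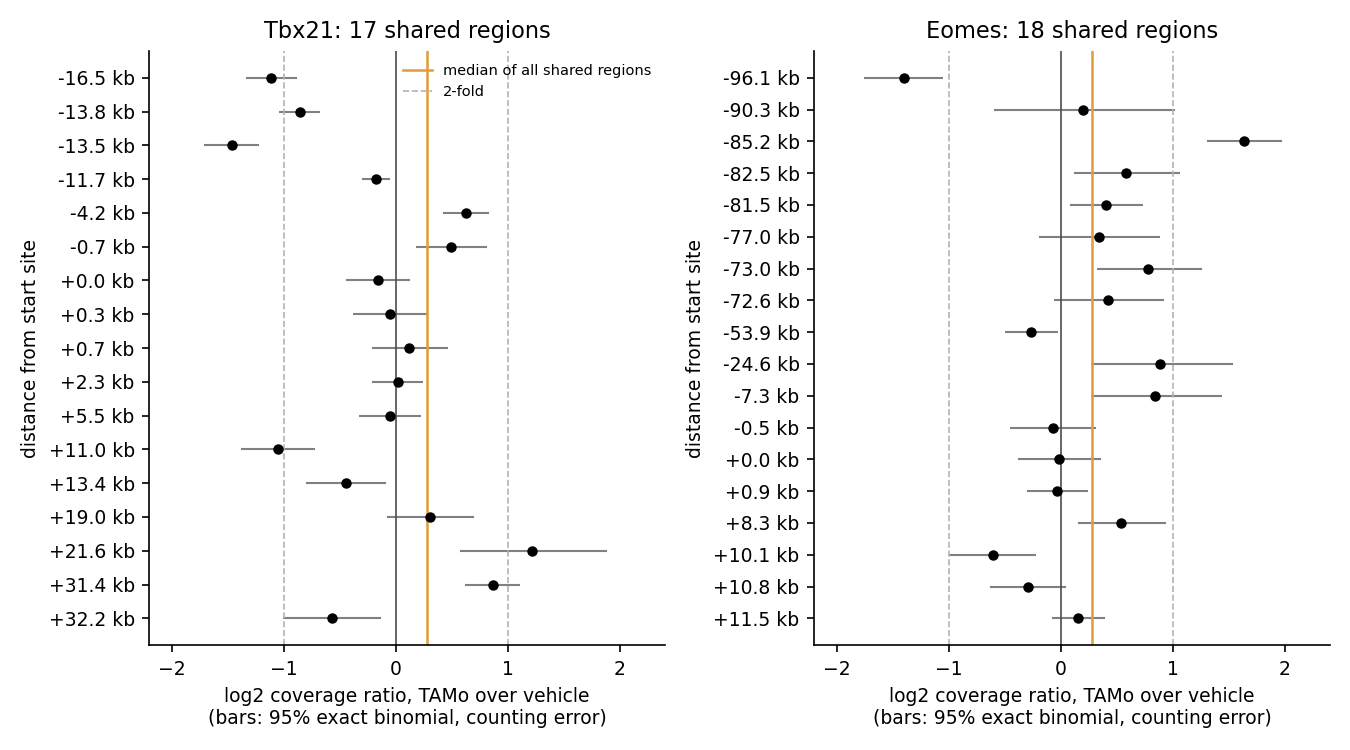
Log2 ratio of background-scaled summit coverage, TAMo over vehicle (horizontal axis), with 95% exact binomial intervals for counting error as bars, for the shared regions of Tbx21 (left, 17) and Eomes (right, 18), ordered by distance from the start site; the orange line is the median of all shared regions, 0.28, and dashed lines mark 2-fold. At Tbx21 the regions at −16.5, −13.5 and +11.0 kb lie past 2-fold lower, and at Eomes the regions at −96.1 and −85.2 kb lie past 2-fold on opposite sides.

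At Eomes the start site was level between the libraries, and the larger differences lay far upstream. Past 2-fold were 2 of its 18 shared regions, 1 higher in TAMo, where 21.9% of all shared regions were, and 1 lower, where 3.19% were, and the median log2 ratio was 0.27 (range −1.40 to 1.64), beside 0.28 over all shared regions. Within 50 kb of the start sites alone the Eomes median was −0.01. The interval lay above 0 at 7 regions, below 0 at 3 and across 0 at 8. Over all shared regions it lay above 0 at 43.9% and below 0 at 13.7%. At Eomes it lay above 0.28 at 2 regions and below 0.28 at 5, and the shares of all shared regions for this are not given here. Of the 25 vehicle peaks of Eomes 24% overlapped no TAMo peak, where 12.5% of all vehicle peaks did, and of its 33 TAMo peaks 45.5% overlapped no vehicle peak, where 39.5% of all TAMo peaks did. For Tbx21 these numbers were 1 of 19 and 1 of 17.

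The Eomes promoter had 3 regions within 1 kb of its 2 annotated start sites. The peak over the RefSeq start (118478086 to 118478290) had 113 reads in vehicle and 138 in TAMo, or −0.01 (−0.38 to 0.36). Its summits lay 8 and 7 bp from that start, and 103 of the bases printed above, the TATA match included, fell inside it in both libraries. The region 0.5 kb upstream had 107 and 126 reads, or −0.07 (−0.45 to 0.32). The region over exon 1 (118478409 to 118479457) had its highest summit at 208 reads in vehicle, in the coding part, and at 251 reads in TAMo, in the 5′ UTR part, or −0.03 (−0.30 to 0.24). Those summits lay 866 and 307 bp downstream of the nearest start site, so that ratio compares different sites. Summits closer in place had 208 and 239 reads (866 bp in vehicle, 879 bp in TAMo) and 123 and 208 reads (691 and 698 bp). The TAMo summit of 251 reads lay between vehicle summits of 173 reads (254 bp) and 128 reads (354 bp). With the mean over the summits of that region instead of the highest, its ratio was 0.26. By highest summits no promoter interval of Eomes excluded 0, but over exon 1 this does not compare like sites.

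Far upstream of Eomes, 72.6 to 98.9 kb from the start site, 14 regions lay mostly between genes. The region 85.2 kb upstream (118392710 to 118393195) had 96 reads in vehicle and 368 in TAMo, or 1.64 (1.31 to 1.98), and 90.1% of all shared regions had a lower ratio. The region 96.1 kb upstream (118381899 to 118382368) had 216 reads in vehicle and 101 in TAMo, or −1.40 (−1.75 to −1.05), and only 1.32% of all shared regions had a lower one. The highest and the lowest ratio of the gene thus lay in the same far upstream stretch. The regions 73.0 and 72.6 kb upstream, in an intron of the long noncoding RNA gene Platr11, both had 58 reads in vehicle, with 123 in TAMo at the former, or 0.78 (0.32 to 1.26), and 96 at the latter, with an interval across 0. The region 82.5 kb upstream had 60 and 111 reads, or 0.59 (0.12 to 1.06). The region 81.5 kb upstream had 131 and 214 reads, or 0.41 by the highest summit, and −0.26 by the mean over summits, so its direction depended on that choice. The regions 90.3 and 77.0 kb upstream, with 24 and 50 reads in vehicle and 34 and 78 in TAMo, had intervals across 0.

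Closer to Eomes, the region 53.9 kb upstream (118424145 to 118424808) was its strongest in vehicle, with 291 reads there and 299 in TAMo, or −0.26 (−0.50 to −0.03). Weak regions 24.6 and 7.3 kb upstream had 32 and 38 reads in vehicle and 73 and 84 in TAMo, with log2 ratios of 0.89 (0.27 to 1.53) and 0.84 (0.27 to 1.43). Downstream, the region at 11.5 kb had 250 and 344 reads, or 0.16 (−0.08 to 0.40), and the region at 10.8 kb had 149 and 150 reads, or −0.29 (−0.63 to 0.04). The regions at 8.3 and 10.1 kb, in an intron of Gm33460, a gene annotated on the opposite strand, went opposite ways, with 88 and 158 reads at the former (0.54, 0.16 to 0.93) and 127 and 103 at the latter (−0.60, −0.99 to −0.22). The Eomes locus thus held differences in both directions.

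Most regions of Eomes called in 1 library had few reads, against median summits of 81 reads over the vehicle list and 93 over the TAMo list. The 6 vehicle-only regions had 14 to 65 reads and the 15 TAMo-only regions 15 to 176 reads, with a median of 35 reads. The strongest by −log10 q, 98.9 kb upstream (118379122 to 118379413), had a −log10 q of 87.3 and 176 reads, above the TAMo median summit. The nearest vehicle peak, 2445 bp away, had a local background of 11.5 reads. At local backgrounds within 10% of that, the lowest summit in the whole vehicle list had 23 reads. The local background was 23.7 reads at the region itself in TAMo, and 30.1 reads at the vehicle peak 103.3 kb upstream, so the limit at the site is uncertain. Next by −log10 q among the far regions came TAMo-only regions 74.9 kb upstream with 87 reads and 77.8 kb upstream with 91 reads, and a vehicle-only region 27.1 kb upstream with 38 reads. Within 10 kb of a start site, TAMo-only regions lay 1.3 kb upstream (118476864 to 118477102) with 104 reads, 8.9 kb upstream with 24 reads, and 9.5 kb downstream with 92 reads. There 1 vehicle-only region, with 65 reads, lay in intron 1, 1.2 kb downstream. Where a list has no peak, the caller made no call, which does not show that the site was closed.

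The 100 kb limit and the nearest-gene rule set the edges of both loci. Just outside lay a TAMo-only region of 40 reads 36382 bp downstream of Tbx21, nearest to Osbpl7, and a TAMo-only region of 89 reads 18949 bp upstream, nearest to Tbkbp1. For Eomes a region whose vehicle summit lay 103291 bp upstream (118374519 to 118375268) fell just beyond the limit, with 613 reads in vehicle and 452 in TAMo, and on the other side a vehicle-only region of 17 reads lay 18900 bp from the Eomes start, nearest to Golga4.

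Genes around the T-box factors were compared by their strongest promoter peaks. Over the 12926 genes whose peaks overlapped between libraries the median log2 ratio was 0.03, of which 3.65% were past 2-fold higher in TAMo and 0.727% past 2-fold lower. The interval lay above 0 at 26.4% of these promoters and below 0 at 17.7%. Over all 20780 protein-coding genes, 13743 had a promoter peak in vehicle and 14269 in TAMo. Of 14 other T-box genes, most with roles in embryonic patterning, 8 had a promoter peak in vehicle and 9 in TAMo. The 7 with a ratio had a median of 0.28 (−0.44 to 0.68), and none was past 2-fold. Of 21 upstream regulators and partners, all had a promoter peak in both libraries, and the 19 ratios had a median of 0.12 (−0.18 to 0.60), with 7 intervals above 0, none below 0 and none past 2-fold. The highest was Stat4, named after its value was seen, which encodes the signal transducer downstream of IL-12: 399 reads in vehicle and 745 in TAMo, or 0.60 (0.42 to 0.78).

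Of 20 genes known as T-bet or Eomes targets or effector genes linked to them, all had a promoter peak in both libraries, and the 18 ratios had a median of 0.19 (−0.73 to 2.31). The intervals lay above 0 at 6 and below 0 at 5, and 2 genes were at least 2-fold higher. Klrg1, which encodes an inhibitory lectin-like receptor of terminal effector cells, had 26 reads in vehicle and 159 in TAMo, or 2.31 (1.71 to 2.97). Cx3cr1, which encodes a chemokine receptor of effector T cells and of monocytes, had 26 and 145 reads, or 2.18 (1.57 to 2.84). As given above, 4 of 12 myeloid markers had a promoter peak in vehicle and 8 in TAMo, beside 13743 and 14269 of 20780 protein-coding genes. The part of myeloid cells in the Cx3cr1 value was not tested. Among the cytotoxicity genes, Prf1 (perforin) had 764 reads in vehicle and 567 in TAMo and Gzmb (granzyme B) had 1048 and 1181. The log2 ratios were −0.73 (−0.89 to −0.57) and −0.13 (−0.25 to −0.01), while those of Gzma (0.20), Gzmk (−0.04) and Fasl (0.20) had intervals across 0. Ifng, the interferon-γ gene, had 417 and 394 reads, or −0.38 (−0.59 to −0.18). At Il2rb, the receptor subunit through which IL-2 and IL-15 act, the strongest promoter peaks lay at different sites, with 1056 reads in vehicle and 1353 in TAMo. The targets thus stood on both sides of 0 and included no promoter at least 2-fold lower.

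**Figure D4:**
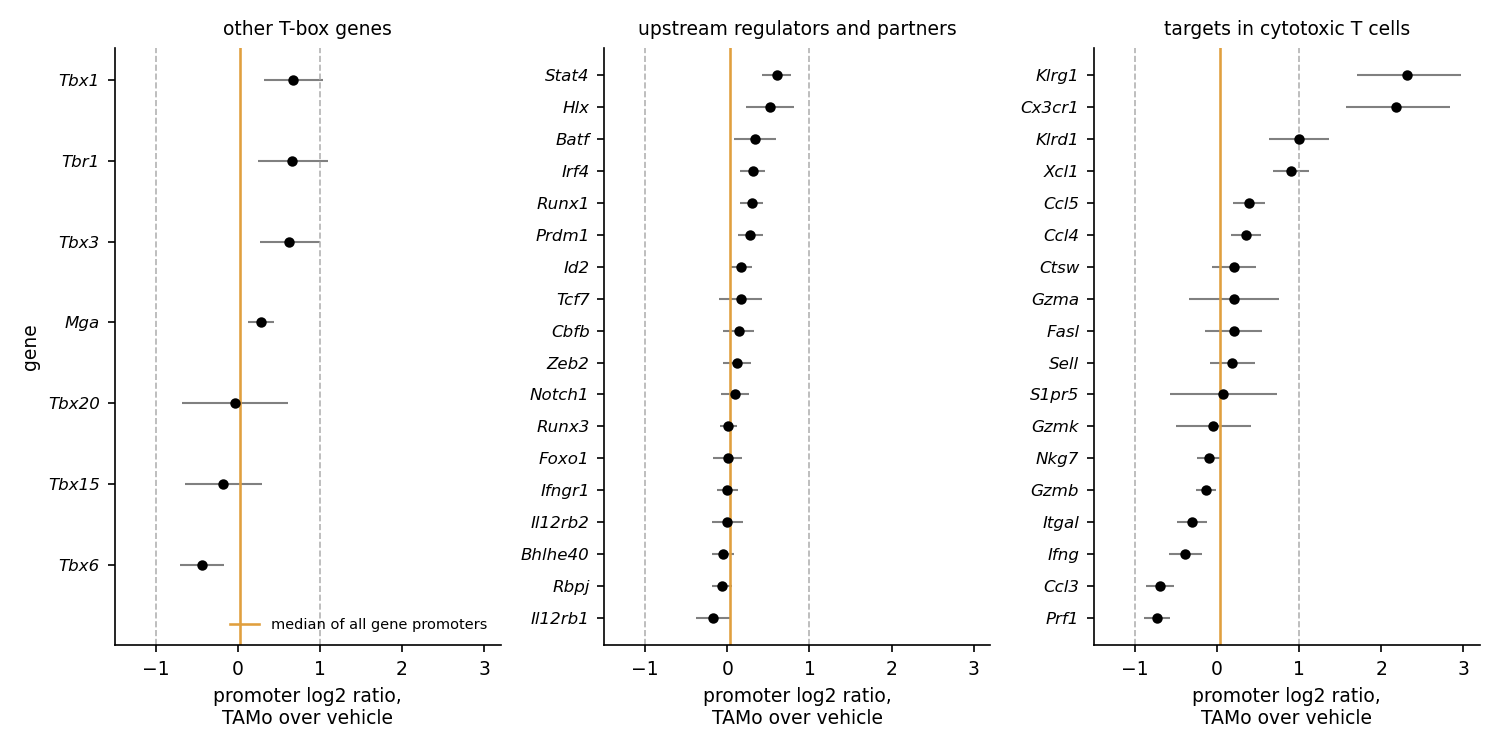
Log2 ratio of promoter summit coverage, TAMo over vehicle (horizontal axis), for genes of 3 lists whose promoter peaks overlapped between libraries (18 of the 19 regulators are drawn), with 95% exact binomial intervals for counting error; the orange line is the median of all gene promoters, 0.03, and dashed lines mark 2-fold. Klrg1 and Cx3cr1 lie past 2-fold higher, and the regulators lie between −0.18 and 0.60.

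The genes most like each factor were taken over 13556 genes by the distance between 4 values: log2 promoter coverage and log2 peak number in each library. Nearest to Tbx21 were Cdkn2a (distance 0.19), Crispld2, Zfp710, Ppp4r2 and Cdkn2b (0.33). For Tbx21 the promoter reads used were 202 in vehicle and 229 in TAMo, from peaks at different sites. Among the 5 nearest to Eomes were Map3k1 (0.26), Stum, Tcf7 and Cdyl2 (0.28). Tcf7, for example, had 209 reads in vehicle and 288 in TAMo at its promoter and 22 and 34 peaks, against 208 and 251 reads and 25 and 33 peaks for Eomes. These are likenesses in 2 libraries.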

How the data were processed

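Per the submitters' processing notes, reads were handled with Trimmomatic 0.36, Bowtie2 and MACS2 on build mm10; settings, read shifting and duplicate removal were not stated in the labels used here. Each library has its own deposited peak list, in which the authors' columns hold a score (about 10 times −log10 q), a fold ratio over local background, and −log10 of p and of q. Of these deposited values, −log10 q served only to rank or filter within a list.

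Whole summit reads were recovered from the fold, (reads + 1)/(local background + 1), and the Poisson −log10 p, accepted within 1% of the step between whole reads; 30 vehicle and 48 TAMo rows gave none. Median summit depth was 81 reads in vehicle and 93 in TAMo, and lists held chromosomes 1 to 19. Reads were divided by the most frequent background of each library; ratios carry 95% exact binomial intervals. Intervals overlapping by 1 bp were joined, and a region was represented by its highest summit in each library. A promoter reached 1 kb to each side of a GENCODE M21 start site and was represented by the interval strongest by −log10 q.

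Named regions were all those within 10 kb of a start site and, farther out, those with the highest and lowest ratios and the strongest 1-library peaks; the others are given by reads or in counts. From the lists of T-box genes, regulators and targets, those past 2-fold and Ifng, Gzmb, Prf1 and Il2rb were named by rule; Stat4, Gzma, Gzmk, Fasl and the cell type markers were named after their values were seen. Members and lists were chosen with earlier results of these data known. The local background, the percentages within a library, the stretches of each locus and the flanks were chosen after the values were seen. The motif search planned around summits was replaced by one of RefSeq promoters, since no genome sequence was used here. Scripts were tested on simulated data (Python 3.11.15, SciPy 1.17.1). Of the regulators, 1 gene is not drawn, and of the most alike genes 1 is not reported here.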

Additional observations from a re-analysis of the deposited data

How the results depend on the processing

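No paired analysis was possible because each culture had 1 library, and for the same reason no replicate could be left out. Peak numbers depended on reach and list length: within 50 kb Eomes had 13 vehicle and 16 TAMo peaks. With lists of equal length it had 25 vehicle and 21 TAMo peaks, the reverse order of the 25 and 33 of the full lists. Its peaks found in 1 library only then numbered 8 in vehicle and 5 in TAMo, against 6 and 15 with the full lists. For Tbx21 they then numbered 1 in vehicle and 0 in TAMo. The share over all peaks with lists of equal length is not given here. With ratios centred on all shared regions, none of the Tbx21 regions was at least 2-fold higher (0) and 4 were at least 2-fold lower. The shares over all shared regions with that centring are not given here. The Eomes promoter ratio was then −0.31. Centred on gene promoters, the Eomes promoter ratio was −0.07. Relative to the start-site region of Tbx21, an alternative added after the values were seen, 2 of its regions were at least 2-fold higher and 1 was at least 2-fold lower in place of 3. The median ratio of Eomes was −0.01 within 50 kb, 0.16 with −log10 q of at least 10 in both libraries and −0.01 when centred on all shared regions, against 0.27. Centring on all shared regions turned the sign at 4 of 35 regions, centring on promoter regions at 1 and the mean over summits at 2. Depth limits the weak regions: the Tbx21 region with 28 and 80 reads had an interval from 0.58 to 1.89, the one with 1003 and 1092 reads from −0.30 to −0.05.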

Other observations

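The stretch beyond the upstream edge of Tbx21, assigned to Tbkbp1, a gene of the TBK1 kinase pathway, went the other way from the Tbx21 cluster beside it; it was looked at after the values of the cluster were seen. The 5 shared regions 21.4 to 27.1 kb upstream of the Tbx21 start site, inside Tbkbp1, had log2 ratios of 0.68 to 1.00. Among them, the region at 25.6 kb (chromosome 11, 97140773 to 97141188) had 368 reads in vehicle and 728 in TAMo, or 0.68 (0.50 to 0.87), and the region at 27.1 kb (97142118 to 97142726) had 299 and 737 reads, or 1.00 (0.80 to 1.20). The 3 shared regions 31.6 to 35.4 kb upstream, toward the Tbkbp1 start, were lower in TAMo, with log2 ratios of −0.25, −0.66 and −0.44. From the Tbkbp1 start to the cluster upstream of Tbx21 the ratio thus changed sign more than once.

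Beyond the 100 kb limit of Eomes, 13 regions lay 100 to 200 kb upstream of its start site, of which 9 were shared, with a median log2 ratio of 0.37 (−1.42 to 1.45). The strongest of those still nearest to Eomes were the region at 103.3 kb, given in the report, and the region at 120.6 kb (chromosome 9, 118357261 to 118357856), with 315 reads in vehicle and 562 in TAMo, or 0.53 (0.33 to 0.74).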
